A study of Sus scrofa with 6 samples.

Results

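PIGR, FCGRT and JCHAIN, 3 of the 20648 genes in the files, encode the proteins that carry antibodies across mucosal surfaces, and their transcripts were followed in single cells of the piglet ileum from birth to day 21. The rows were taken by gene symbol and read in 76099 cells, which are barcodes with at least 1000 UMIs (unique molecular identifiers, each marking 1 captured transcript) and at least 500 genes. Male Large White piglets fed maternal milk were sampled at 0, 1, 3, 7, 14 and 21 days of age, with no other treatment, and each age is 1 library of scraped and EDTA-released ileal mucosa on the 10x Chromium 3′ system. The labels name the ileum throughout, while the series' design line names the cecum. The methods describe several piglets per age and a single chip loading per group, so that neither the piglets within a library nor age and library can be told apart.

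Cells were placed in lineages by summed UMIs of a few marker genes, and a cell could belong to more than 1 lineage. The epithelial class (EPCAM, KRT8 and VIL1, 5 or more UMIs) held 4486 cells, the B class (MS4A1, PAX5 and POU2AF1, 2 or more) 52536, the myeloid class (LYZ, CST3 and AIF1, 10 or more) 1691 and the endothelial class (PECAM1 and FLT1, 3 or more) 800. T cells (4897) and stromal cells (984) were read as further references, and 17511 cells met none of the 4 main rules. Barcodes with 100 UMIs or fewer, between 1033288 and 1459372 per library, were taken as a measure of RNA outside cells, called the background here. On day 0, 2408 of the 1033288 held 10 or more UMIs. Whether the UMIs of these barcodes came from RNA outside cells was not tested. The make-up of the libraries changed steeply with age. Epithelial cells numbered 2976, 1114, 103, 256, 36 and 1 on days 0, 1, 3, 7, 14 and 21, and B cells 2434, 3600, 8105, 10445, 14823 and 13129.

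The polymeric immunoglobulin receptor (PIGR) sits on the basolateral side of epithelial cells, binds dimeric IgA and pentameric IgM, and carries them to the lumen, where its outer part is shed with the antibody as secretory component. The joining chain (JCHAIN) is made by antibody-secreting cells, links the IgA or IgM subunits, and provides the site that the receptor recognises. The neonatal Fc receptor (FCGRT, paired with B2M) binds IgG in acidic endosomes and spares it from breakdown, and in several species it moves IgG across epithelia. The piglet is born with almost no circulating antibody and takes up maternal IgG from colostrum through the small intestine until the gut closes. On Sscrofa11.1, the assembly of the files (susScr11), PIGR lies on chromosome 9 from 67553094 to 67574698, FCGRT on chromosome 6 from 54581103 to 54599193 and JCHAIN on chromosome 8 from 67439405 to 67448628, all annotated as protein coding.

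Total UMIs ran from 77391932 to 100348769 per library, and the median cell held 3693 to 4560 UMIs. Pairs of libraries shared between 31 and 68 cell barcodes. Levels are UMIs of a gene per 10000 UMIs of a set of cells, and since counting starts at the 3′ end they are compared within a gene and not between genes. Intervals are 95% Poisson intervals for levels and exact Clopper-Pearson intervals for shares of cells, and both cover counting error only. Where a count was 0, the limit given is 3 counts of the total. With 1 library per age, no test between single ages was possible.

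The classes were checked against other markers of the same types. CDH1, KRT18, KRT19, CDX2, FABP1 and CLDN7 summed to between 25.4 and 51.1 per 10000 in the epithelial class. In the B class, CD79A, CD79B, BANK1, BLK and CD74 summed to between 42.5 and 72.8. CD74, a gene of antigen presentation, is also made by myeloid cells, where the same 5 genes summed to between 38.1 and 107. Without CD74 the sum was 8.21 to 14.3 in the B class, 0.564 to 4.20 in the myeloid class and 0.700 to 4.63 in T cells. The PECAM1 and FLT1 class did not hold its label at the older ages. CDH5, VWF, KDR, TEK, EGFL7 and LYVE1 summed to 20.7, 23.4, 4.95, 1.94, 0.0183 and 0.0559 per 10000 in it from day 0 to day 21, and 5 of these 6 markers (CDH5, VWF, KDR, TEK and LYVE1) were at 0 on days 14 and 21. On those days 55 of 56 and 23 of 23 cells of the class also met the B rule, as did 35 of 38 on day 7 and 32 of 64 on day 3. It is therefore called the PECAM1 and FLT1 class below. The myeloid class had CSF1R, CD14, CD68, FCER1G, TYROBP, S100A8, MARCO and FLT3 at a sum of 9.72 to 39.6, and the 6 epithelial markers in it summed to 25.6, 12.5, 1.60 and 58.8 on days 0, 1, 3 and 7. It shared 130 of 411 cells with the epithelial class on day 0 and 97 of 936 on day 1, and main results on these classes are given again with cells of more than 1 lineage left out. The B class had 760 of 2434 cells exactly at its cut-off on day 0 and 551 of 13129 on day 21.

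FCGRT was high in epithelial, myeloid and stromal cells and low in lymphocytes. In epithelial cells its levels on days 0, 1, 3, 7 and 14 were 6.47 (interval 6.40 to 6.55), 5.65, 3.69, 8.08 and 7.60 per 10000 UMIs (6.65 to 8.64, 36 cells), and the single epithelial cell of day 21 had 5 UMIs. The lowest age was day 3 and the highest day 7, whose interval (7.67 to 8.51) overlapped that of day 14. The level of day 7 was 2.19 times that of day 3 (1.95 to 2.46, counting error only). As a mean over cells day 14 stood above day 7 (8.33 and 5.87). Epithelial cells of no other lineage had 3.44 on day 3, 9.58 on day 7 and 9.89 on day 14 (27 cells). Between 68.4% and 91.7% of epithelial cells held at least 1 FCGRT UMI on the 5 ages with 20 or more cells. When every cell was thinned to 1000 UMIs these shares were between 26.3% and 54.1%.

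Myeloid cells had FCGRT at 7.31, 6.19, 3.30, 7.31 and 4.06 per 10000 on days 0, 1, 3, 7 and 14, so that they too were lowest on day 3. Myeloid cells of no other lineage had 7.07, 6.03, 3.40, 6.94 (17 cells) and 5.29. Stromal cells had 5.89, 5.52 and 4.17 on days 0, 1 and 3, the ages with more than 6 such cells. FCGRT in the PECAM1 and FLT1 class was 7.64 and 6.95 on days 0 and 1 and 1.55, 1.09, 0.275 and 0.224 on days 3, 7, 14 and 21. Split by the B rule, the cells of the class outside it had 7.90, 7.23, 4.13 and 5.49 per 10000 on days 0, 1, 3 and 7 (254, 323, 32 and 3 cells). The cells inside it had 4.37, 4.48, 0.541, 0.924, 0.240 and 0.224 from day 0 to day 21.

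B cells had FCGRT at 2.13, 0.957, 0.322, 0.353, 0.161 and 0.142 per 10000 from day 0 to day 21, and T cells at 2.50, 1.23, 0.527, 0.573, 0.489 and 0.370. With cells of more than 1 lineage left out, B cells had 0.724 on day 0 and 0.141 on day 21. The background was 3.69, 2.66, 0.472, 0.499, 0.209 and 0.129. B cells stood below the background on days 0 to 14, at 0.578, 0.360, 0.683, 0.707 and 0.772 times it, and at 1.10 times it on day 21. Epithelial cells stood at 1.76 and 2.12 times the background on days 0 and 1 and at 7.81, 16.2 and 36.4 times it on days 3, 7 and 14. The share of B cells with an FCGRT UMI was 28.1% on day 0 and 6.13% on day 21, and the library background was itself higher on day 0. All cells together stood at 1.28, 1.17, 1.22, 1.17, 1.05 and 1.15 times the background from day 0 to day 21. On day 21 B cells held 93.3% of the FCGRT UMIs in cells. A level below the background was thus also below that of all cells together. This cannot tell whether B cells express FCGRT, which was not tested.

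**Figure D1:**
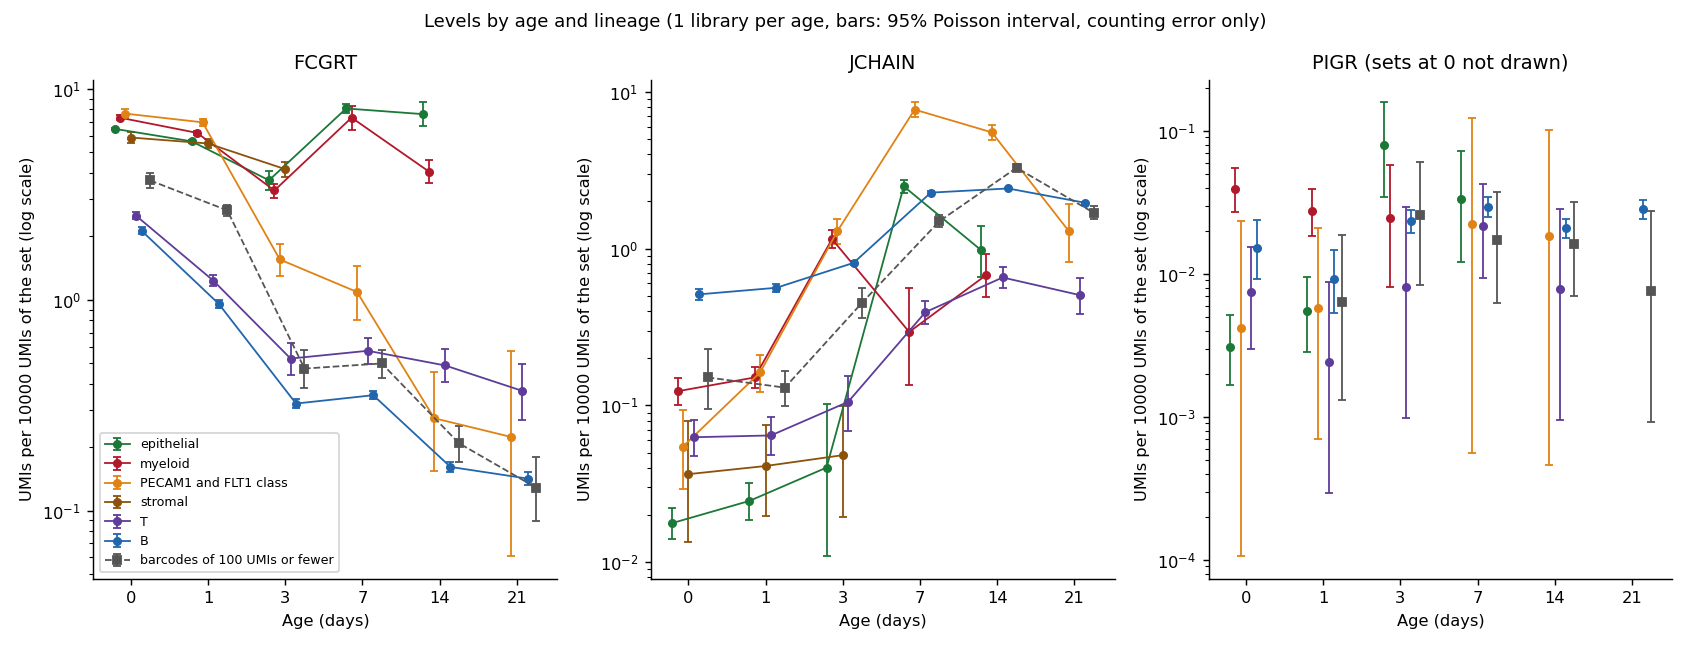
FCGRT, JCHAIN and PIGR (UMIs per 10000 UMIs of the set, log axes) by age in days for 6 lineage classes of 20 or more cells and for barcodes of 100 UMIs or fewer, each point 1 library with its 95% Poisson interval. FCGRT in epithelial and myeloid cells stayed between 3.30 and 8.08 while B cells, T cells and the background were low at the older ages, and PIGR was under 0.1 in every class drawn.

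Lineages were compared over libraries on summed counts with edgeR's quasi-likelihood test, with the library as a block, in sets of at least 50 cells, and p-values were adjusted over the 13602 genes tested. FCGRT was higher in epithelial than in B cells by 3.08 ± 0.58 on the log2 scale (SE, 4 epithelial and 6 B sets, adjusted p = 0.00115, edgeR), and higher in 4 of the 4 libraries with both. With cells of more than 1 lineage left out the difference was 3.54 ± 0.34 (adjusted p = 7.37e-06, edgeR), beside 28.9% of genes higher and 29.5% lower. JCHAIN was lower in epithelial cells by 3.47 on that scale (log2 difference -3.47 ± 1.04, adjusted p = 0.015, edgeR), and lower in 3 of the 4 libraries with both, with day 7 the other way (2.49 and 2.27 per 10000). That call was lost when day 0, 1 or 3 was left out and without the library block, as given with the JCHAIN values. Thus 1 of 3 members was higher and 1 lower, beside 32.6% of all genes higher and 18.6% lower in that comparison. For PIGR the difference was -0.27 ± 0.77 (adjusted p = 0.803, edgeR).

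In myeloid cells FCGRT was 3.33 ± 0.59 above B cells on the log2 scale (adjusted p = 0.00247, edgeR), the 1 member of 3 called, beside 21.9% of genes called higher and 11.7% lower. Without cells of more than 1 lineage it was 3.89 ± 0.34 (adjusted p = 1.62e-05, edgeR), beside 18.6% of genes higher and 18.4% lower. In the PECAM1 and FLT1 class FCGRT was 2.09 ± 0.55 above B cells (adjusted p = 0.0217, edgeR), again 1 member of 3, beside 12.9% of genes higher and 4.79% lower. That call was lost when day 0, day 1 or day 3 was left out (adjusted p = 0.0569, 0.176 and 0.0854, edgeR) and without the library block (0.084). With cells of more than 1 lineage left out, the difference was 3.60 ± 0.39 (adjusted p = 4.22e-05, edgeR), beside 19.0% of genes higher and 15.1% lower. In that setting the class kept 2 libraries of 50 or more cells, days 0 and 1, in place of 4, so that cells and libraries changed together.

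Between epithelial cells, myeloid cells and the PECAM1 and FLT1 class, FCGRT did not pass the test. The difference between epithelial and myeloid cells was -0.25 ± 0.66, that between epithelial cells and the PECAM1 and FLT1 class was 0.99 ± 0.62, and that between myeloid cells and that class was 1.24 ± 0.61 on the log2 scale. In each of these 3 comparisons edgeR called 0 of 3 members at an adjusted p under 0.05, beside 10.9%, 28.9% and 10.3% of all genes. The members with an unadjusted p under 0.05 numbered 0, 1 (JCHAIN) and 1 (PIGR), and DESeq2 called 1 (JCHAIN), 1 (JCHAIN) and 0. None of these was FCGRT. The order of these 3 classes in FCGRT was not settled. Epithelial stood above myeloid cells in sets of at least 20 cells (0.42) and without the library block (0.22). They stood above the PECAM1 and FLT1 class in sets of at least 20 cells, where that difference passed (1.82, adjusted p = 0.0238, edgeR), and not with cells of more than 1 lineage left out (-0.06). The lower minimum added days 7 and 21 of that class, on which 35 of 38 and 23 of 23 of its cells also met the B rule.

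Within the epithelium FCGRT was not even. Cells with crypt markers (OLFM4 and SPINK1, 10 or more UMIs), a region of stem and dividing cells, had 8.09 per 10000 on day 0 (7.82 to 8.36, 193 cells), 5.88 on day 1 and 5.02 on day 3. Cells with absorptive markers (RBP2, APOA1, APOC2 and MEP1A, 20 or more), which mark lipid-handling enterocytes, had 6.76 on day 0 (6.64 to 6.89, 862 cells), 5.55 on day 1 and 11.4 on day 7 (24 cells). Goblet-marker cells (MUC2, FCGBP and CLCA1, 10 or more), the mucus producers, had 3.01, 2.85 and 2.92 on days 0, 1 and 3. Enteroendocrine-marker cells (CHGA and CHGB, 10 or more), which release gut hormones, had 3.83, 2.78 and 2.03. The background on those days was 3.69, 2.66 and 0.472, so that both classes lay below it or close to it on days 0 and 1 and above it on day 3.

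On all 3 days the crypt-marker cells stood above the goblet-marker and enteroendocrine-marker cells with intervals that did not overlap. They were also the deepest of these 3 classes on each day, with medians of 18894, 7633 and 3946 UMIs on day 0. The part of depth in these levels was not tested. No test over libraries was made of these classes, since the rules left 3 libraries and as few as 19 cells in a set. Enterocytes with 20 or more UMIs of FABP6, the bile acid binding protein of the distal ileum, had FCGRT at 7.71, 7.01 and 6.31 on days 0, 1 and 7 (33, 34 and 21 cells).

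The epithelial class was made up differently on day 3, its lowest age for FCGRT, and day 7, its highest by the summed level but not as a mean over cells. On day 3, 29 of its 103 cells had enteroendocrine markers, 19 goblet markers, 25 crypt markers and 3 absorptive markers, 6 had markers of several kinds, 3 had FABP6 and 18 had none of these. On day 7, 6 of 256 had enteroendocrine markers, none had goblet markers alone, 6 had crypt and 24 absorptive markers, 58 had markers of several kinds and 21 had FABP6. The other 141 cells of day 7 had none of these, a median of 2847 UMIs and FCGRT at 4.13 per 10000. The part of this make-up in the FCGRT level of the class was not tested.

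**Figure D2:**
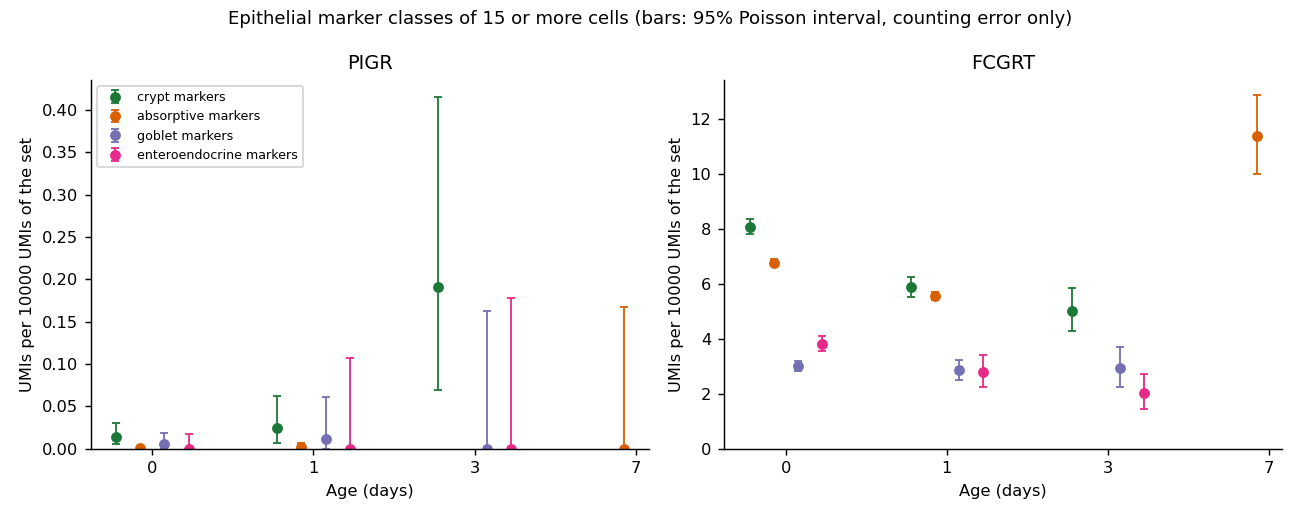
PIGR and FCGRT levels (UMIs per 10000 UMIs of the set) by age in days in epithelial cells with crypt, absorptive, goblet or enteroendocrine markers, for classes of 15 or more cells, with 95% Poisson intervals. Crypt-marker cells reached 0.191 for PIGR on day 3, and goblet-marker and enteroendocrine-marker cells had FCGRT between 2.03 and 3.83.

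Few PIGR UMIs were counted at any age, and on days 14 and 21 there were few epithelial cells to count them in. Whether these 3′ counts capture all PIGR transcripts was not tested. The 6 libraries held 815 PIGR UMIs in all cells, 65, 55, 158, 178, 183 and 176 from day 0 to day 21. Epithelial levels of PIGR were 0.00307 per 10000 at birth (14 UMIs, interval 0.00168 to 0.00514), then 0.00546, 0.0802 (8 UMIs, 0.0346 to 0.158) and 0.0332 (6 UMIs) on days 1, 3 and 7. No PIGR UMI was seen in the 36 epithelial cells of day 14, which allows a share of cells with a UMI of up to 8.33%, or in the single cell of day 21. The shares of epithelial cells with a UMI on days 0, 1, 3 and 7 were 0.403%, 0.808%, 6.80% (2.78% to 13.5%) and 1.95%.

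B cells, which are not a known source of the receptor, held PIGR at 0.0153, 0.00921, 0.0234, 0.0293, 0.0209 and 0.0282 per 10000 from day 0 to day 21. The background was 0.00638, 0.0260, 0.0171, 0.0162 and 0.00757 on days 1 to 21, and on day 0 no PIGR UMI was seen among 1460139 background UMIs, which allows up to 0.0205 per 10000. The epithelial interval overlapped that of the background on each of days 0, 1, 3 and 7, so that a difference between the class as a whole and the background was not detectable at this depth. T cells held between 0 and 8 UMIs per library, and stromal cells held none in any library, which on day 1 (420 cells) allows a share of up to 0.714%.

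Within the epithelium, crypt-marker cells had PIGR at 0.0142 per 10000 on day 0 (6 UMIs, 0.00520 to 0.0308), 0.0242 on day 1 (4 UMIs) and 0.191 on day 3 (6 UMIs, 0.0700 to 0.415), where 5 of 25 cells held one. On day 3 this interval lay above that of the background (0.00843 to 0.0606), and on days 0 and 1 the intervals overlapped. The absorptive-marker cells had 0.000634 on day 0 (1 UMI in 862 cells) and 0.00188 on day 1 (2 UMIs). On day 0 the intervals of both classes did not overlap (crypt from 0.00520, absorptive up to 0.00353), and on day 1 they did (crypt from 0.00660, absorptive up to 0.00679). The day 0 crypt UMIs lay in 4 of 193 cells. By share of cells with a UMI, the day 0 intervals of both classes overlapped (crypt from 0.568%, absorptive up to 0.645%). Enteroendocrine-marker cells held no PIGR UMI at any age at which there were such cells, which on day 0 (464 cells) allows up to 0.0140 per 10000.

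The cells with 3 or more PIGR UMIs were few. There were 5 on day 0, all in the myeloid class, and 3 on day 1, all in the myeloid class and 1 of them also epithelial. That class held 411 of 10836 and 936 of 11494 cells on those days. On days 3, 7, 14 and 21 there were 8, 7, 6 and 10, of which 6, 6, 6 and 10 met the B rule. As the B class held 8105 of 11361, 10445 of 12634, 14823 of 15956 and 13129 of 13818 cells then, these counts were near its share of all cells. The epithelial class held 103, 256, 36 and 1 cells on these days. On day 21 those 10 cells held 100 of 176 PIGR UMIs, with up to 24 in a cell. Myeloid cells of no other lineage had PIGR at 0.161 per 10000 on day 0 (260 cells) and 0.0401 on day 1, beside 0.00220 and 0.00313 in epithelial cells of no other lineage. On day 3 the order was the other way, 0.0312 in those myeloid and 0.105 in those epithelial cells. On day 7 it was 0.0166 in the epithelial cells, and no PIGR UMI was seen in the 17 myeloid cells, which allows up to 0.372. CSF1R, the macrophage growth factor receptor, was at 3.96 and 3.47 in those myeloid cells on days 0 and 1 and at 0.00770 and 0.0138 in those epithelial cells. Over libraries the difference between epithelial and myeloid cells was -1.18 ± 0.87 on the log2 scale (adjusted p = 0.381, edgeR) and did not pass. It ran from -2.33 without day 3 to -0.16 without day 0 when 1 library was left out. Of the alternatives run it passed only with the lineage cut-offs doubled, at -2.56 (adjusted p = 0.0454, edgeR), and with cells of more than 1 lineage left out it was -3.04 ± 1.23 (0.0672).

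Of the 6 lineages, JCHAIN was highest in B cells on days 0, 1 and 21. On day 21 the classes other than B and T cells held 23 cells or fewer. B cells had 0.511, 0.562, 0.811, 2.27, 2.42 and 1.96 per 10000 from day 0 to day 21. The share of B cells with a JCHAIN UMI was 19.9%, 20.1%, 25.2%, 32.9%, 44.8% and 39.1%, and 5.84%, 5.47%, 6.79%, 10.5%, 14.8% and 13.6% after thinning to 1000 UMIs. The level of day 21 was 3.84 times that of day 0 (3.54 to 4.16, counting error only). In the background JCHAIN was 0.151, 0.130, 0.451, 1.49, 3.28 and 1.69, so that B cells stood at 3.39 and 4.33 times it on days 0 and 1 and at 0.738 times it on day 14.

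Epithelial cells had JCHAIN at 0.0177, 0.0246 and 0.0401 per 10000 on days 0, 1 and 3, below the background of the same library each time. On day 7 their level was 2.49, but 415 of the 450 UMIs came from 1 cell, and without it the level was 0.196. On day 14 it was 0.978 (30 UMIs), and 0.513 without the cell that held 15 of them. T cells had 0.0626, 0.0643, 0.105, 0.393, 0.654 and 0.505 from day 0 to day 21, below the background in every library. Stromal cells had 0.0364, 0.0410 and 0.0481 on days 0, 1 and 3.

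The call of JCHAIN as lower in epithelial than in B cells was lost when day 0, 1 or 3 was left out, with log2 differences of -2.90, -3.23 and -3.21 (adjusted p = 0.0674, 0.0734 and 0.0686, edgeR), and without the library block (-1.11, 0.512). With cells of more than 1 lineage left out it was -6.02 ± 0.50 (adjusted p = 3.1e-06, edgeR), beside 28.9% of genes higher and 29.5% lower. JCHAIN in the PECAM1 and FLT1 class was 0.0546, 0.162, 1.29, 7.70, 5.51 and 1.29 per 10000 from day 0 to day 21. The cells of that class outside the B rule had 0.0362 on day 0 and 0.00322 on day 1, and no JCHAIN UMI was seen in the 32 such cells of day 3, which allows up to 0.121 per 10000. Those inside it had 0.288, 1.59, 1.80, 7.99, 5.57 and 1.29. Over libraries the class differed from B cells by -0.47 ± 0.88 (adjusted p = 0.757, edgeR), and by -5.58 ± 0.73 (0.000135) with cells of more than 1 lineage left out, when the class kept only days 0 and 1, with 7 JCHAIN UMIs in all. Epithelial cells differed from the class by -3.00 ± 1.17 (adjusted p = 0.0718, edgeR), and by -0.44 ± 0.86 (0.739) in that setting.

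**Figure D3:**
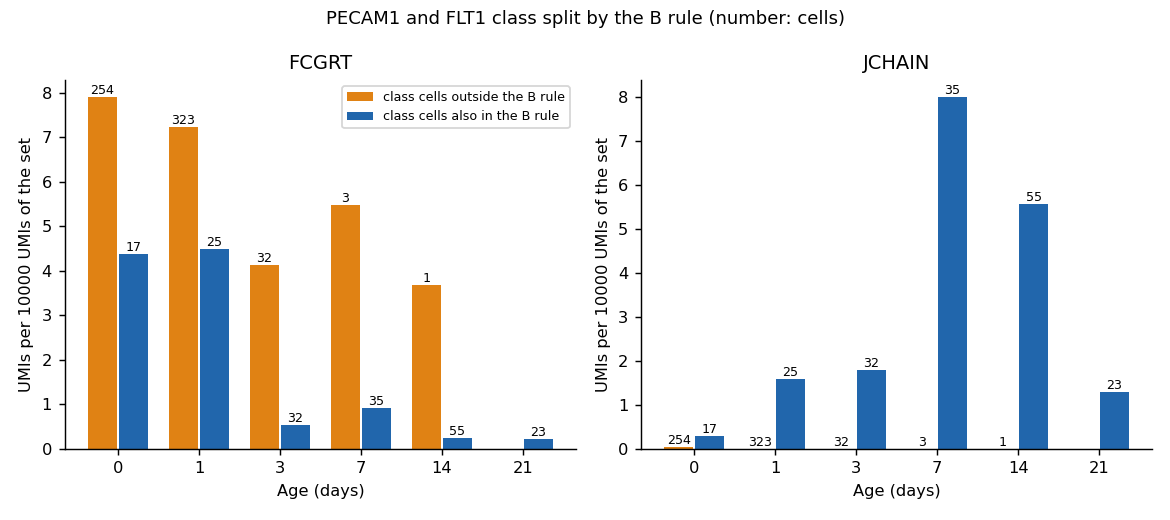
FCGRT and JCHAIN levels (UMIs per 10000 UMIs of the set) by age in days in the cells of the PECAM1 and FLT1 class outside the B rule (orange) and also in it (blue), 1 library per age, with the number of cells above each bar and no error drawn. JCHAIN reached 7.99 and 5.57 in the cells also in the B rule on days 7 and 14, while FCGRT was higher outside the B rule at the 5 ages with such cells, 3 of them on day 7 and 1 on day 14.

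Myeloid cells had JCHAIN at 0.123, 0.151, 1.15 and 0.680 per 10000 on days 0, 1, 3 and 14, and differed from B cells by -1.14 ± 0.83 on the log2 scale (adjusted p = 0.304, edgeR). With cells of more than 1 lineage left out that difference was -1.77 ± 0.39 (0.0048), and that between epithelial and myeloid cells went from -2.33 ± 1.09 (0.168) to -4.25 ± 0.51 (6.65e-05, edgeR). The latter also passed without day 7, the library of the epithelial cell with 415 JCHAIN UMIs (-2.94, adjusted p = 0.0469, edgeR). On day 3 myeloid cells that also met another rule had 4.08 and those of no other lineage 0.393 per 10000.

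JCHAIN was unevenly spread over B cells at the older ages. Among B cells, those with 10 or more summed UMIs of MZB1, TNFRSF17, PRDM1, DERL3 and TXNDC5, genes of the plasma cell programme and its protein folding, numbered 51, 105, 479, 753, 1356 and 442 from day 0 to day 21. Their JCHAIN levels were 0.432, 0.824, 1.38, 9.46, 7.24 and 9.27 per 10000, against 0.521, 0.533, 0.649, 0.952, 1.31 and 1.33 in the other B cells. They held 65 of 635, 152 of 1038, 1549 of 4118, 8118 of 12557, 11627 of 20828 and 4493 of 12079 JCHAIN UMIs of B cells, so that most lay in the other B cells on days 0, 1, 3 and 21. By this summed level they stood above the other B cells in 5 of 6 libraries and not on day 0, where the intervals overlapped (0.333 to 0.550 and 0.480 to 0.566). As a mean over cells they stood above them in every library, on day 0 at 1.81 against 0.607. The share of cells with a JCHAIN UMI on day 0 was 41.2% against 19.4%, and 8.82% against 5.78% after thinning to 1000 UMIs. On that day the marker cells had the 6 epithelial markers at 19.6 per 10000 and the B markers without CD74 at 2.27, beside 6.41 and 9.03 in the other B cells. On day 1 these sums were 7.09 and 4.76, beside 1.5 and 9.84, and from day 3 on the epithelial markers in the marker cells summed to 0.227 or less. Their part in the levels of days 0 and 1 was not tested.

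Over the 6 libraries the difference was 1.65 ± 0.52 on the log2 scale (adjusted p = 0.0615, edgeR) and did not pass. In that comparison edgeR called 0 of 3 members, 2 had an unadjusted p under 0.05 (JCHAIN and PIGR), and 5.54% of the 11363 genes tested were higher and 9.72% lower. No second tool was run on it. JCHAIN passed without day 0 (2.12, adjusted p = 0.0267, edgeR) and at a cut-off of 20 UMIs (3.22, 0.0071), where day 0 also dropped out because it held too few such cells. At a cut-off of 5 UMIs it was 0.98 ± 0.35 and did not pass (adjusted p = 0.078, edgeR). The marker cells were also the deeper cells, with a median of 9778 to 19519 UMIs against 3511 to 4470 in the other B cells, and the part of depth was not tested.

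**Figure D4:**
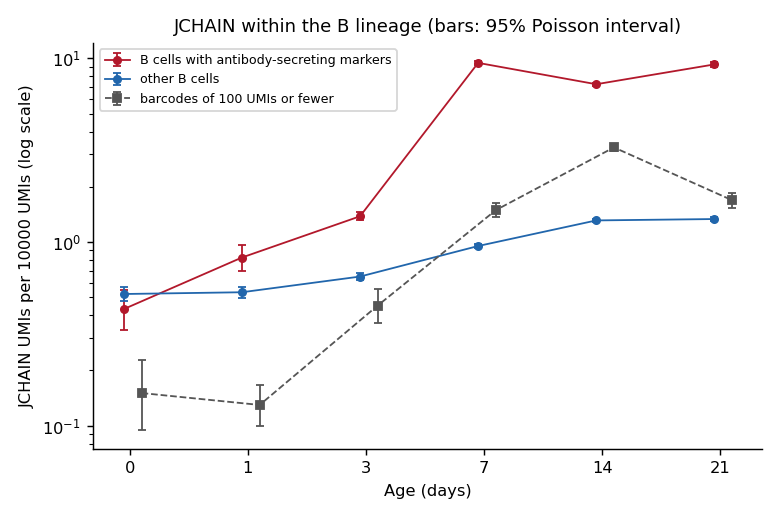
JCHAIN level (UMIs per 10000 UMIs, log axis) by age in days in B cells with antibody-secreting markers, in other B cells and in barcodes of 100 UMIs or fewer, each point 1 library with its 95% Poisson interval. The marker cells were at 9.46, 7.24 and 9.27 on days 7, 14 and 21, where the other B cells were at 0.952, 1.31 and 1.33 and below the background.

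Cells with 20 or more JCHAIN UMIs numbered 1, 2, 10, 84, 96 and 34 from day 0 to day 21. They held 3.36%, 4.34%, 18.6%, 50.1%, 37.1% and 32.3% of the JCHAIN UMIs in cells, with up to 1175 in 1 cell on day 7. Most met the B rule, 77 of 84 on day 7, 85 of 96 on day 14 and 31 of 34 on day 21. Among all cells 10445 of 12634, 14823 of 15956 and 13129 of 13818 met it on those days. On days 14 and 21 the cells with 20 or more JCHAIN UMIs thus met the B rule no more often than cells in general. Cells that met none of the 4 rules had JCHAIN at 0.110, 0.136, 0.260, 1.68, 5.96 and 4.79 per 10000, and the 11 of them with 20 or more JCHAIN UMIs on day 14 held 1433.

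A trend with age could be tested over the 6 libraries in B and T cells, the classes with 50 or more cells at every age, which gives 6 relations. With 6 libraries the smallest p an exact two-sided permutation test can give is 0.00278. FCGRT was lower at older ages in B cells (Spearman's rho = -0.943, exact permutation p = 0.0167, adjusted p = 0.0333, and Pearson's r = -0.674, exact p = 0.00556, adjusted p = 0.0167) and in T cells (rho = -0.943, the same exact p-values, r = -0.654). JCHAIN was higher at older ages in T cells by rho (0.943, exact permutation p = 0.0167, adjusted p = 0.0333) and not by r (0.871, exact p = 0.0361, adjusted p = 0.0722). In B cells JCHAIN did not pass (rho = 0.829, exact permutation p = 0.0583, adjusted p = 0.0875, r = 0.773, exact p = 0.075). PIGR did not pass in B (rho = 0.657, r = 0.627) or T cells (rho = -0.0857, r = -0.244), at adjusted exact p-values from 0.183 to 0.919.

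Markers of other lineages moved with these trends. The 6 epithelial markers summed to 8.0, 2.06, 0.123, 0.426, 0.0471 and 0.00859 per 10000 in the B class from day 0 to day 21. T cells that also met the B rule were 5.17%, 5.56%, 11.6%, 22.1%, 27.1% and 35.4% of the T class, and the B markers without CD74 in that class summed to 0.700, 0.732, 1.43, 2.79, 4.63 and 4.11. In T cells that met none of the 4 main rules, FCGRT was 0.970, 0.808, 0.520, 0.584, 0.605 and 0.404 and JCHAIN 0.0240, 0.0306, 0.0206, 0.0459, 0.196 and 0.176 per 10000, and no trend passed (rho = -0.771 and 0.771, both exact permutation p = 0.103, adjusted p = 0.154). In B cells of no other lineage, where the 6 epithelial markers summed to 0.998 on day 0 and 0.00862 on day 21, FCGRT was 0.724, 0.446, 0.299, 0.309, 0.148 and 0.141. Its rho was -0.943 as before, with the same exact permutation p of 0.0167 but an adjusted p of 0.1, while r was -0.809 (exact permutation p = 0.00556, adjusted p = 0.0333).

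With the whole background level of the same library subtracted, the FCGRT and JCHAIN relations turned over. The differences were negative for FCGRT in B cells on days 0 to 14 (-1.56 on day 0 and -0.0476 on day 14). For JCHAIN in T cells they were negative at every age (-0.0881 on day 0 and -2.62 on day 14). Such differences cannot be levels of RNA in cells, and the turned relations were not read as trends of these cells. FCGRT in B cells then had rho = 0.943 and in T cells rho = 0.886, and JCHAIN had rho = -0.543 in B cells and -0.886 in T cells (adjusted exact permutation p = 0.0667, 0.0667, 0.427 and 0.0667). Before the subtraction, FCGRT and JCHAIN in both classes had moved with age in the same direction as the background. The part of the background in the trends was not tested. Without days 14 and 21, the ages farthest from the median, r was -0.759 and -0.757 for FCGRT and 0.966 and 0.956 for JCHAIN in B and T cells, where 4 libraries allow no p below 0.0833.

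**Figure D5:**
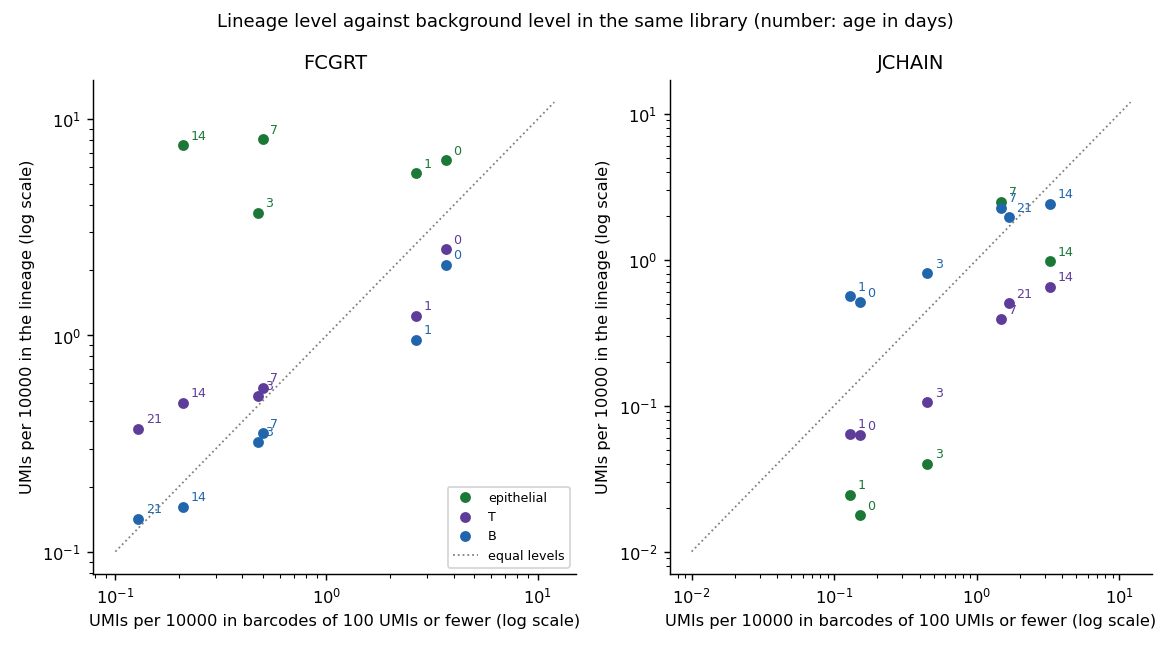
FCGRT and JCHAIN levels (UMIs per 10000) in epithelial, T and B cells against the level in barcodes of 100 UMIs or fewer of the same library, on log axes, with the age in days beside each point and a dotted line where both are equal. FCGRT in B cells lay under the line on days 0 to 14 and that of epithelial cells above it at all 5 ages drawn, and JCHAIN in T cells lay under it at all 6 ages.

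Other genes of antibody transport were read from lists chosen with earlier results of these data known. Among receptors and partners of immunoglobulins (11 of 13 tested), 1 gene was higher and 5 lower in epithelial than in B cells, beside 32.6% and 18.6% of all genes, with a median log2 difference of -1.49 beside 0.18 over all genes. Lower were FCMR, the IgM receptor of B cells (-4.06 ± 0.79, adjusted p = 0.00134), FCGR2B, the inhibitory IgG receptor (-4.68 ± 0.76, 0.000593), FCER2, the low-affinity IgE receptor (-3.79 ± 0.67, 0.00085), and CD300LG and FCAMR, all by edgeR. LGALS3, a lectin, was higher (4.62 ± 0.64, adjusted p = 0.000319, edgeR). With cells of more than 1 lineage left out, 1 of 12 genes tested was higher and 6 lower, beside 28.9% and 29.5% of all genes. B2M, the light chain that FCGRT needs, was at 10.6, 18.9, 12.1 and 40.7 per 10000 in epithelial cells on days 0, 1, 3 and 7.

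In myeloid cells 5 of these 11 genes were higher and 2 lower than in B cells, beside 21.9% and 11.7% of all genes, among them FCER1G, the signalling chain of Fc receptors (4.61 ± 0.73, adjusted p = 0.0015, edgeR), FCGR3A, an activating IgG receptor (3.77 ± 0.75, 0.00402), and B2M (1.64 ± 0.52, 0.0307). In the PECAM1 and FLT1 class CD300LG, a receptor of vascular cells, was higher (4.95 ± 0.70, adjusted p = 0.00105, edgeR) and FCER2 lower, 1 of 11 each, beside 12.9% and 4.79% of all genes. The medians over this list were 0.89 and 0.77, beside 0.13 and 0.05 over all genes. Leaving out cells of more than 1 lineage, 7 of 12 genes tested were higher and 2 lower in myeloid cells (median 1.86), beside 18.6% and 18.4% of all genes. In the PECAM1 and FLT1 class, which that setting limits to days 0 and 1 in every list, 1 was higher and 3 lower, beside 19.0% and 15.1%, and the median turned to -0.19 beside -0.16 over all genes.

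Genes of the transcytosis machinery were mostly higher in the epithelium. Of 19 genes, 12 were higher and 1 lower than in B cells, beside 32.6% and 18.6% of all genes, with a median log2 difference of 1.54 beside 0.18 over all genes. RAB25 (5.09 ± 0.87, adjusted p = 0.000733), RAB17 (4.73 ± 0.76, 0.000577) and MYO5B (4.07 ± 0.68, 0.000664), small GTPases and a motor of apical recycling, and MAL2 (4.74 ± 0.79, 0.000662), a membrane protein of transcytosis to the apical surface, were among those higher by edgeR. RAB25 was at 1.19, 1.25, 1.25 and 0.936 per 10000 in epithelial cells on days 0, 1, 3 and 7, beside 0.306, 0.104, 0.0065 and 0.0101 in B cells. EXOC2, an exocyst subunit, was lower (-0.48 ± 0.13, adjusted p = 0.00754, edgeR). With cells of more than 1 lineage left out, 12 were higher and 2 lower, beside 28.9% and 29.5% of all genes.

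In myeloid cells 10 of these 19 genes were higher than in B cells and none lower at an adjusted p under 0.05, beside 21.9% and 11.7% of all genes. Without cells of more than 1 lineage 5 were higher and 2 lower, beside 18.6% and 18.4%, and the median went from 0.84 to -0.06. Cells of the PECAM1 and FLT1 class had 3 higher, YES1, DYNLT1 and SNAP23, and none lower, beside 12.9% and 4.79% of all genes, or 6 higher and 1 lower with cells of more than 1 lineage left out, when the median went from 0.52 to -0.09.

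Of 16 genes of antibody secretion, 8 were higher and 4 lower in epithelial than in B cells (median log2 difference 0.69), beside 32.6% of all genes higher and 18.6% lower. MZB1, a chaperone of immunoglobulin assembly (-4.25 ± 0.87, adjusted p = 0.00177), IRF4, a plasma cell transcription factor (-3.63 ± 0.87, 0.00443), CD38 (-3.19 ± 0.75, 0.00393) and DERL3 (-2.13 ± 0.64, 0.0147) were lower by edgeR. SDC1, a proteoglycan of plasma cells and of epithelia (3.82 ± 0.56, adjusted p = 0.000399, edgeR), and XBP1, a secretory regulator (1.54 ± 0.21, 0.000293), were higher. Epithelial cells of no other lineage had 7 higher and 5 lower, beside 28.9% and 29.5% of all genes. In myeloid cells 5 were higher and 2 lower, beside 21.9% and 11.7% of all genes, and in the PECAM1 and FLT1 class 5 were higher and 0 lower, beside 12.9% and 4.79%, or 2 and 1 without its day 14 set. Cells of the class in no other lineage had 3 higher and 7 lower, beside 19.0% and 15.1% of all genes, and the median turned from 0.18 to -0.50. Myeloid cells of no other lineage had 4 higher and 4 lower, beside 18.6% and 18.4%.

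In the antibody-secreting-marker B cells, 6 of the 11 genes outside the rule were higher than in other B cells and none lower, beside 5.54% and 9.72% of all genes, with a median of 1.34 beside -0.04 over all genes. These were SDC1 (1.97 ± 0.24, adjusted p = 0.00677), SEC11C (1.55 ± 0.25, 0.00965), PDIA4, HSP90B1, XBP1 and FKBP11, all by edgeR and most of them part of the secretory pathway. SDC1 and XBP1 were also higher in epithelial than in B cells, and the marker cells of days 0 and 1 carried epithelial markers at the levels given above and were deeper than the other B cells in every library. The part of either in these differences was not tested. CD38 was at -0.22 ± 0.49.

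Of the 4 genes that guide plasma cells to the gut, 2 were tested. CCL25, the chemokine of the small intestine that attracts IgA-producing cells, was higher in epithelial than in B cells (4.12 ± 0.87, adjusted p = 0.00209, edgeR), and none passed in myeloid cells or the PECAM1 and FLT1 class. When cells of more than 1 lineage were left out, CCR9, the receptor of CCL25, was higher in myeloid cells (1.84 ± 0.48, adjusted p = 0.0115, edgeR). CCR9 was lower in epithelial cells in that setting (-1.78 ± 0.54, 0.0149), with CCL25 again higher. CCL25 was at 5.66, 2.61, 0.231 and 7.98 per 10000 in epithelial cells on days 0, 1, 3 and 7, lowest, as FCGRT was, on day 3. The make-up of the class on day 3 was counted above, and its part in these levels was not tested.

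Among 14 regulators and inducers of PIGR, 3 were higher and 5 lower in epithelial than in B cells (median -0.11), beside 32.6% of all genes higher and 18.6% lower. HNF4A, a transcription factor of the gut epithelium, was higher (4.54 ± 0.76, adjusted p = 0.000645, edgeR), and TLR4, the receptor for bacterial lipopolysaccharide (-3.51 ± 0.74, 0.00209), and IL17RA (-1.65 ± 0.46, 0.0103) were lower. In myeloid cells 8 of the 14 were higher and none lower, beside 21.9% and 11.7% of all genes, among them IFNGR1 and TLR4. In the PECAM1 and FLT1 class 2 were higher, TNFRSF1A and TLR3, beside 12.9%. In epithelial cells of no other lineage 3 were higher and 7 lower, beside 28.9% and 29.5% of all genes. The myeloid and PECAM1 and FLT1 counts were 7 higher and 0 lower, beside 18.6% and 18.4%, and 3 higher and 2 lower, beside 19.0% and 15.1%, with cells of more than 1 lineage left out.

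The genes most like each member were found from Pearson's r of log2 levels (pseudocount 0.1) over the 18 sets of lineage and library, among 3165 genes that reached 1 per 10000 in a set. The sets share libraries, and r is a description. For FCGRT they were CD63 (r = 0.973), S100A10 (0.971), CTNND1 (0.966), CYFIP1 and GRN (both 0.962). For JCHAIN they were LOC100152327 (0.942), C12H17orf62 (0.925), ITPR2 (0.923), ITSN2 (0.918) and ZNF644 (0.912). For PIGR, on few UMIs, they were GP2 (0.767), CENPX (0.746), NEUROG3 (0.67), SMOC2 (0.669) and AGPS (0.651). Every PIGR level in these sets was below the pseudocount, and the highest, 0.0802, was in the epithelial set of day 3 (8 UMIs in 103 cells). The r values for PIGR thus lean on that set and do not show which genes go with PIGR in general.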

How the data were processed

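Ileal cells of 6 ages, 1 library each, were read from the deposited matrices, which hold raw UMI counts per gene and barcode. Per the labels, the authors counted reads with Cell Ranger 3.1.0 against susScr11. The files held 6794880 barcodes per library, unfiltered. The labels name version 3 of the kit and the methods version 2. Gene positions came from a RefSeq table of Sscrofa11.1.

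Cells and lineages followed the thresholds given in the report. No doublet caller was run. Cells meeting more than 1 lineage rule (25 to 317 per library) and the top 2% of cells by UMIs were left out in alternatives, and in another a free RNA share of 10% with the background's make-up was subtracted. Counts were summed per lineage and library in sets of at least 50 cells (20 for antibody-secreting sets), genes with low counts were removed by edgeR's filterByExpr, and edgeR 4.0.16 (R 4.3.3, TMM, library as a block) fitted all sets together, with Benjamini-Hochberg adjustment. The SE beside an edgeR difference was worked back from the test, as the absolute log2 difference divided by the square root of its F statistic. No exact test over libraries was run for the lineage contrasts. The fit was tested on simulated data. Trends with age used exact permutation tests over all orders of the libraries, with the smaller tail doubled, adjusted over 6 relations. The test was written for this report and checked against that of scipy. DESeq2 1.42.0 was an alternative. Each age has 1 library here, so p-values measure the spread between single libraries of different ages.

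Named genes were the members, up to 4 called genes of each list and comparison, and the 5 genes most like each member. Where more than 4 genes of a list, or genes not called, are named, they were chosen after their values were seen. The members and lists were chosen with earlier results of these data known. One gene of the lists, FCGR2A, was not used here, and 1 gene of a pathway list and 1 marker are not reported here and were left out of their counts and sums.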

Additional observations from a re-analysis of the deposited data

How the results depend on the processing

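Lineage differences were repeated under up to 16 alternatives each and are given on the log2 scale. With cells of more than 1 lineage left out or cut-offs doubled, the PECAM1 and FLT1 class kept 2 libraries, days 0 and 1, in place of 4. In sets of at least 20 cells it gained days 7 and 21, on which 35 of 38 and 23 of 23 of its cells also met the B rule. FCGRT in epithelial and in myeloid cells against B cells kept its direction and its call under all those run. In the PECAM1 and FLT1 class against B cells FCGRT lost its call without the library block (2.34) and without 3 of the single libraries, with values from 1.67 to 2.22 when each was left out. Against the PECAM1 and FLT1 class, epithelial FCGRT was 1.82 and passed in sets of at least 20 cells, and was -0.06 with cells of more than 1 lineage left out. The difference in FCGRT between epithelial and myeloid cells turned to 0.42 in sets of at least 20 cells and 0.22 without the block, and ran from -0.53 to 0.19 with each library left out.

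JCHAIN in epithelial against B cells was -1.11 and not past the threshold without the block, was -5.22 with a free RNA share of 10% subtracted, and ran from -4.36 to -2.90 with each library left out. With that subtraction it was -3.79 in epithelial against myeloid cells and -4.62 against the PECAM1 and FLT1 class, neither past the threshold. In the PECAM1 and FLT1 class against B cells it was -5.58 and passed with cells of more than 1 lineage left out, was 0.25 without the block, and ran from -1.46 to 0.25 with each library left out. Between epithelial cells and that class it passed in sets of at least 20 cells (-2.25), by DESeq2 (-3.20) and without day 7 (-3.64), was -0.44 with cells of more than 1 lineage left out, -1.83 with cut-offs doubled and -1.36 without the block, and ran from -3.64 to -2.31 with each library left out. Between epithelial and myeloid cells it passed with cells of more than 1 lineage left out (-4.25), by DESeq2 (-2.56) and without day 7 (-2.94), was 0.29 without the block, and ran from -2.94 to -1.48. Myeloid against B cells passed at -1.77 with cells of more than 1 lineage left out. Between myeloid cells and the PECAM1 and FLT1 class JCHAIN turned to 3.81 and passed with cells of more than 1 lineage left out (adjusted p = 0.0029, edgeR), and turned to 1.06 with cut-offs doubled and to 0.14 without the day 14 set of that class (chosen after seeing the data), and ran from -0.97 to 0.26. In antibody-secreting-marker B cells it was 3.22 and passed at a cut-off of 20, where day 0 dropped out, was 0.98 at a cut-off of 5, and ran from 1.27 to 2.12 with each library left out.

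PIGR in epithelial against B cells was 0.23 without the block and ran from -1.18 to 0.35, in epithelial cells against the PECAM1 and FLT1 class it ran from -0.01 to 1.93 with each library left out, and in epithelial against myeloid cells it was -2.56 and passed with cut-offs doubled and ran from -2.33 to -0.16. It was dropped by the filter on low counts in sets of at least 20 cells. Without TMM scaling the median of all genes in the PECAM1 and FLT1 class against B cells went from 0.05 to 0.25, and no member's direction changed.

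Trends by rho no longer passed after adjustment with cells of more than 1 lineage left out, at -0.771 and 0.771 for FCGRT and JCHAIN in T cells and at an unchanged -0.943 for FCGRT in B cells, where r still passed (-0.809), and that of PIGR in T cells turned to 0.0286. With the whole background level subtracted, which made many of the differences negative, the trends in rho turned. They were 0.943 and -0.543 for FCGRT and JCHAIN in B cells and 0.886 and -0.886 in T cells. For PIGR in T cells r turned to 0.907 without the 2 oldest ages. The day 0 over day 21 ratio of FCGRT in B cells (interval 13.9 to 16.2) was 5.14 with cells of more than 1 lineage left out, 10.4 without the top 2% of UMIs and 6.37 as a mean over cells. The day 21 over day 0 ratio of JCHAIN in B cells was 2.98 with cells of more than 1 lineage left out, 3.39 with cut-offs doubled and 3.35 as a mean over cells. Of 54 single levels (3 genes in 18 sets), all lay within their counting interval under looser and stricter limits on cells, 51 with mitochondrial-rich cells left out, 33 without the top 2% of UMIs and 23 as a mean over cells. With cells of more than 1 lineage left out 21 of 48 did, and with cut-offs doubled 26 of 48. Of 54 shares of cells with a UMI, 4 lay within their interval after thinning to 1000 UMIs, which lowers such shares. Of 18 background levels, 10 lay within theirs when only barcodes of 10 to 100 UMIs were used. The cause of these changes was not tested. No paired analysis was possible between ages because each age is 1 library and the labels give no shared replicate numbers. Lineages were paired within a library by the block, and leaving it out ended the calls of FCGRT in the PECAM1 and FLT1 class and of JCHAIN in epithelial cells, both against B cells.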
